A study of Mus musculus with 19 samples.

Results

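Antibody transcripts in the liver were followed through 9 genes: the light chain constant genes *Igkc* and *Iglc2*, the heavy chain constant genes *Ighm*, *Igha*, *Ighg1*, *Ighg2b*, *Ighg2c* and *Ighg3*, and *Jchain*. They were taken by name from the 31053 genes of the count table, by no threshold on their values. Of the 9 genes, 4 had at least 1 count in every library. In the fit over all genes, *Ighm* counts were lower in livers of thioacetamide-treated mice given the control vector than in vehicle livers. *Igha* and *Ighg2b* counts were higher in thioacetamide-treated mice given the miRNA vectors than in vehicle livers in that fit. None of these calls passed an exact test of single genes after adjustment. The other vector group had the same direction against vehicle without a call. Its log2 fold change was -0.73 for *Ighm* with the miRNA vectors, and 1.71 for *Igha* and 1.45 for *Ighg2b* with the control vector. *Igha* and *Ighg2b* reached the minimum count for the fit over all genes mainly through libraries of the miRNA vectors, where they were high. Both were also called in a fit with no minimum count. No gene of the set passed the test between the vectors, and each of the calls against vehicle was lost under at least one other treatment of the data.

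An antibody pairs heavy chains with light chains, and the constant gene used by the heavy chain sets its class: *Ighm* encodes IgM, *Igha* IgA and the *Ighg* genes the IgG subclasses. A B cell starts with IgM and can switch to a downstream constant gene, and plasma cells, the antibody-secreting end of the lineage, fill much of their mRNA with these transcripts. *Jchain* encodes the small joining chain that plasma cells build into IgM and IgA polymers. Hepatocytes do not make antibodies. The liver clears IgA and passes it to bile, and its resident lymphocytes and plasma cells are scattered among far more numerous hepatocytes.

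Male C57BL6J mice, 6 to 8 weeks old, received PBS as vehicle (5 libraries, named PBS in the plots) or rising doses of the hepatotoxin thioacetamide (TAA) for 12 weeks. At week 10, TAA mice were injected with AAV8 TBG eGFP (AAV-GFP, 7 libraries, TAA_GFP in the plots) or with the pair of vectors AAV8 TBG miR-34b with AAV8 TBG miR-34c (AAV-miR-34b/c, 7 libraries, TAA_miR in the plots), and livers were taken 4 weeks later. The TBG promoter drives expression in hepatocytes, and per the methods mice were perfused with PBS at sacrifice. The labels name no vector for vehicle mice, so TAA and vector cannot be told apart in comparisons with vehicle, and both of these comparisons share the same 5 vehicle libraries.

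Library totals lay between 2214073 and 5208405 counts. In 6 within-group pairs of libraries, the variation beyond counting noise over all genes was 0.0812 to 0.171 as a coefficient of variation, against 0.215 to 0.48 in the other 46 within-group pairs. These close pairs were vehicle libraries 1 and 4, vehicle 3 and 5, AAV-GFP 1 and 2, and AAV-miR-34b/c 1 and 2, 3 and 4, and 5 and 7. They differed by more than sampling noise, with 2.87 to 6.03 chi-square units per gene, and were kept as separate libraries. The labels number them as separate biological replicates. Whether any pair came from 1 animal is not given in the sources used here, and if so the number of animals would be smaller than that of libraries. Taken as 1 sample each, they leave 3, 6 and 4 samples per group, and the calls and ratios below are also given under that treatment. Another library stood apart by itself. AAV-miR-34b/c library 6 held 1047 counts of the 9 genes, against 149 to 227 in the other 6 libraries of its group. Markers of the labelled tissue were present in all libraries, with a summed level of 70200 to 114100 CPM (counts per unit of library size, scaled between libraries with TMM factors) for 7 hepatocyte genes.

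The ends of the heavy chains set IgM and IgA apart from IgG. The last 30 coding bases, stop codon included, of the *Ighm*, *Igha*, *Ighg2b*, *Jchain* and *Igkc* transcripts in the GENCODE M21 annotation (GRCm38) are shown because these genes carry the comparisons below. In-frame cysteine codons are in capitals. The cysteine near the end of the secreted IgM and IgA heavy chains is the one through which polymers and the joining chain are linked, and that at the end of the kappa chain binds the heavy chain. No cysteine codon lies within these bases in any of the 4 IgG genes.
Ighm: atgtctgacacaggcggcaccTGCtattga
Igha: atgtcagagggagatggcatcTGCtactga
Ighg2b: aagaccatctcccggtctccgggtaaatga
Jchain: ttgacccccgattctTGCtaccctgactag
Igkc: gtcaagagcttcaacaggaatgagTGTtag
The *Ighm* bases are at chr12:113420867-113420896, those of *Igha* at chr12:113258768-113258797 and those of *Ighg2b* at chr12:113306389-113306418, all on the minus strand. The *Jchain* bases are at chr5:88521313-88521342 on the minus strand and the *Igkc* bases at chr6:70726728-70726757 on the plus strand. The heavy chain genes lie in a row on chromosome 12, from *Igha* (chr12:113254830-113260236) to *Ighm* (chr12:113418558-113422730). In the last 300 bases of each transcript, none of the 201 windows of 100 bases, the read length, was found unchanged in the transcripts of another gene. *Iglc2* came closest, with 52.2% of its windows within 5 mismatches of another gene and as few as 1 mismatch to *Iglc3*, so its counts are uncertain. *Ighg2b* and *Ighg2c* differed by at least 8 mismatches per window.

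Together the 9 genes took 91 to 239 counts per vehicle library, 107 to 418 per AAV-GFP library and 149 to 1047 per AAV-miR-34b/c library. The median summed level was 58.3 CPM in vehicle, 59.98 CPM in AAV-GFP and 64.0 CPM in AAV-miR-34b/c livers. *Igkc* alone made up 52.0%, 53.8% and 53.2% of these counts. A single library therefore rested on few counts for most classes, and 3 counts, the number a count of 0 allows, equal 0.610 to 1.33 CPM depending on the library. Intervals and floors cover counting error only. In bulk liver, fewer cells of a type and less RNA per cell cannot be told apart.

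Variable genes, which encode the antigen-binding ends of the chains far from the sequenced 3′ end, were nearly without counts. Of 185 *Ighv* genes none had a count, 4 of 160 *Igkv* genes shared 6 counts over all libraries (3 of them in *Igkv9-120*), and 1 of 3 *Iglv* genes, *Iglv1*, had 2. The counts of the set say nothing about antigen specificity or clones.

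**Figure D1:**
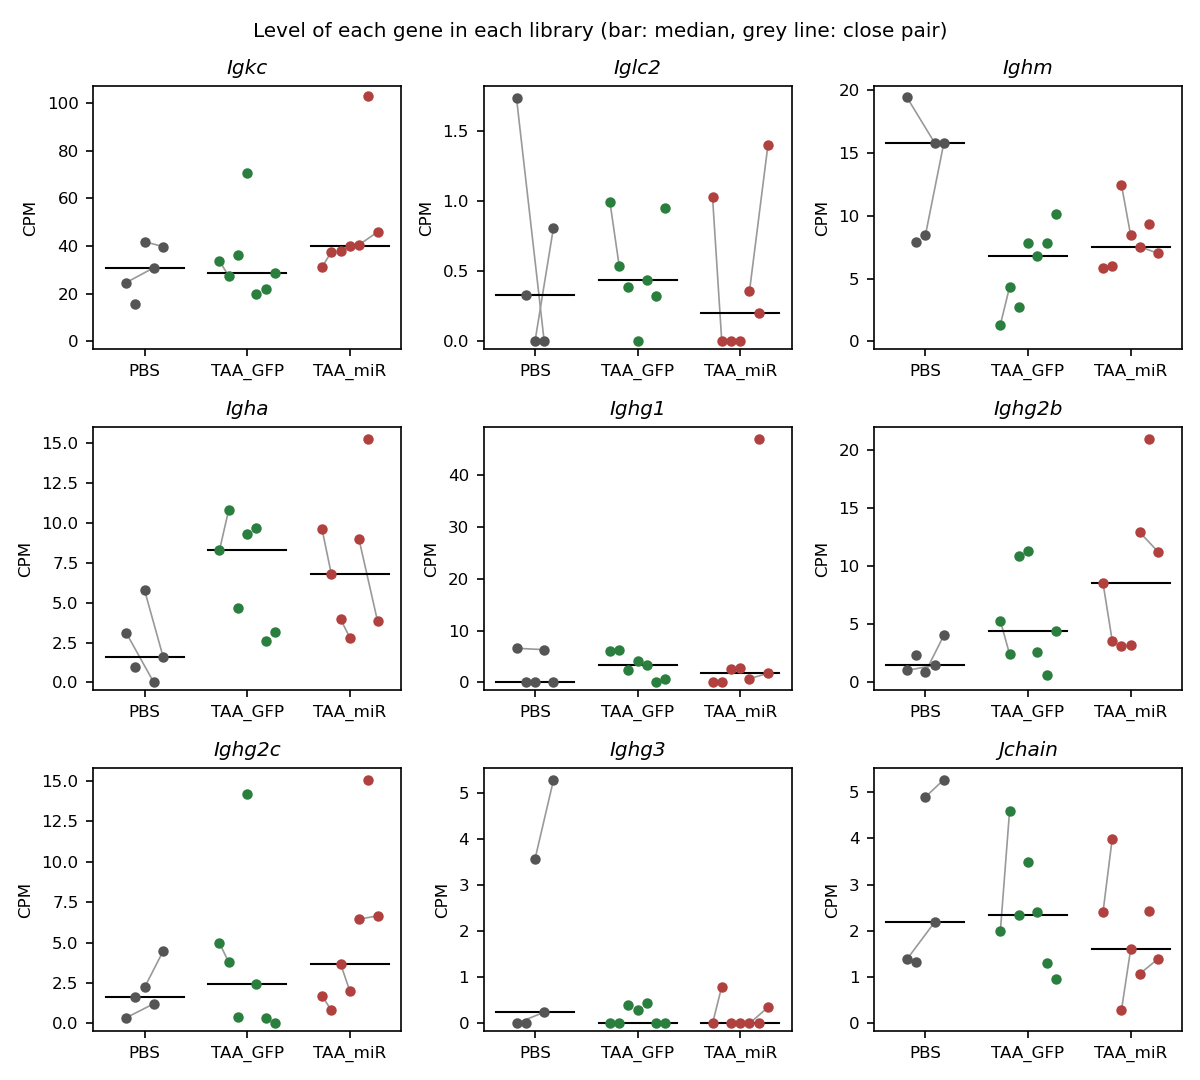
Level of each of the 9 genes in CPM (vertical axes, different scales) in each library of the 3 groups, with a bar at the group median and grey lines joining close pairs. *Ighm* has its highest median in vehicle (15.8 CPM) and *Igha* its lowest there (1.62 CPM), and a single AAV-miR-34b/c library stands at 103 CPM of *Igkc* and 47.0 CPM of *Ighg1*.

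*Igkc*, the kappa chain that most mouse antibodies carry, had the most counts of the set. Vehicle libraries 1 to 5 held 24.6, 15.6, 41.8, 30.9 and 39.7 CPM (71, 47, 94, 127 and 98 counts). AAV-GFP libraries ranged from 19.8 to 70.7 CPM with a median of 28.9, and AAV-miR-34b/c libraries from 31.2 to 103 CPM with a median of 40.2. The groups overlapped, and the highest values were those of AAV-GFP library 4 and AAV-miR-34b/c library 6. In edgeR fits over all genes, the log2 fold change of *Igkc* was 0.17 (SE 0.29, adjusted p = 0.739) for AAV-GFP over vehicle, 0.67 (SE 0.30, adjusted p = 0.114) for AAV-miR-34b/c over vehicle and 0.49 (SE 0.29, adjusted p = 0.462) between the vectors. Without AAV-miR-34b/c library 6, the log2 difference from vehicle was 0.36 (edgeR adjusted p = 0.276, with a range over libraries left out of 0.0635 to 0.276).

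*Iglc2*, one of the lambda chain constant genes, had 0 to 5 counts per library. It made up a median of 2.0%, 1.94% and 0.198% of the *Igkc* plus *Iglc2* counts in vehicle livers and in those given AAV-GFP and AAV-miR-34b/c. Of the other lambda genes, *Iglc1* had 0 to 17 counts per library, *Iglc3* 0 to 8 and *Iglc4* none. *Iglc1* reached 16 and 17 counts in vehicle libraries 3 and 5, a close pair, against 2, 5 and 2 in the other vehicle libraries. The ratio of *Iglc2* to *Igkc* did not pass a test in any comparison (two-sided exact permutation test, adjusted p = 0.536 to 0.885 over 21 ratio tests).

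*Ighm*, the IgM heavy chain gene, stood lower in TAA than in vehicle livers, with a call for AAV-GFP. Vehicle libraries 1 to 5 held 19.4, 7.94, 8.45, 15.8 and 15.8 CPM (56, 24, 19, 65 and 39 counts). AAV-GFP libraries ranged from 1.33 to 10.2 CPM with a median of 6.81, and AAV-miR-34b/c libraries from 5.82 to 12.5 CPM with a median of 7.53. In AAV-GFP, 6 of 7 libraries were below every vehicle library, and in AAV-miR-34b/c 4 of 7 were. *Ighm* fell by 1.19 on the log2 scale (SE 0.36) in AAV-GFP against vehicle livers and passed the edgeR test with an adjusted p of 0.0361. It was the only one of the 5 members tested there to do so. Over all genes tested, 12.7% were called in this comparison, 5.19% lower and 7.54% higher. The call was lost when close pairs were summed (log2 fold change -1.0, edgeR adjusted p = 0.170, within a range of 0.00256 to 0.170 over the other processing choices). It was also lost without vehicle library 1, 4 or 5 or AAV-GFP library 1, 2 or 3, with an adjusted p of up to 0.117 in edgeR.

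Against vehicle, *Ighm* in AAV-miR-34b/c livers had a log2 fold change of -0.73 (SE 0.27, edgeR adjusted p = 0.0655). It passed without vehicle library 2 or 3 or AAV-miR-34b/c library 3 (edgeR adjusted p from 0.0364 to 0.197 over libraries left out). Between the vectors it was 0.45 (SE 0.33, edgeR adjusted p = 0.595). In the test of single genes, a two-sided exact permutation of log2 CPM, *Ighm* gave p = 0.0215 for AAV-GFP and p = 0.0354 for AAV-miR-34b/c against vehicle. Neither passed after adjustment over the 27 exact tests of members (adjusted p = 0.145 and 0.191). *Ighd*, which naive B cells express together with *Ighm*, had 0 to 2 counts in vehicle, 0 to 8 in AAV-GFP and 0 to 2 in AAV-miR-34b/c libraries.

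*Igha*, the IgA heavy chain gene, went the other way. Vehicle libraries 1 to 5 held 3.12, 0.992, 5.78, 0 and 1.62 CPM (9, 3, 13, 0 and 4 counts). AAV-GFP libraries ranged from 2.61 to 10.8 CPM with a median of 8.29, and AAV-miR-34b/c libraries from 2.81 to 15.2 CPM with a median of 6.78. In each TAA group, 4 of 7 libraries lay above all vehicle libraries, and the rest overlapped with them. *Igha* was higher in AAV-miR-34b/c than in vehicle livers by 1.80 on the log2 scale (SE 0.61, 3.47-fold), with an edgeR adjusted p of 0.0453. The log2 fold change ran from 1.40 to 2.44 over libraries left out. Of the vehicle libraries only library 3 held more than 10 counts, so the gene entered the fit mainly through the AAV-miR-34b/c libraries. It was also called with no filter on low counts. Over all genes tested, 21.9% were called in this comparison, 12.2% higher and 9.75% lower. The call of *Igha* was lost without vehicle library 1, 2, 4 or 5 or AAV-miR-34b/c library 5 or 6 (edgeR adjusted p up to 0.099). It was also lost with scaling by library size only (edgeR adjusted p = 0.0587) and with the replicate number as a block (edgeR adjusted p = 0.0782). Summing close pairs ended it too (log2 fold change 2.06, edgeR adjusted p = 0.0692, within a range of 0.0276 to 0.0782 over the other processing choices). For AAV-GFP against vehicle the log2 fold change was 1.71 (SE 0.57, edgeR adjusted p = 0.0549), which did not pass the threshold of 0.05. It ran from 1.32 to 2.36 over libraries left out. Here too the gene entered the fit mainly through libraries of TAA mice. Without vehicle library 3, AAV-GFP library 6 or AAV-GFP library 7 it passed (edgeR adjusted p as low as 0.0222, with a range of 0.0222 to 0.116 over libraries left out). It was also called by DESeq2 (adjusted p = 0.0346), by limma-voom (adjusted p = 0.00864) and by edgeR with no filter on low counts (adjusted p = 0.0303). The exact permutation p was 0.0177 for AAV-GFP and 0.0164 for AAV-miR-34b/c (both 0.145 after adjustment). Between the vectors the log2 difference was 0.08 (SE 0.39, edgeR adjusted p = 0.956), and its sign turned with scaling by library size only, with limma-voom, and without AAV-GFP library 6 or 7 or AAV-miR-34b/c library 6.

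*Ighg2b*, an IgG subclass gene, was also higher against vehicle. Vehicle libraries 1 to 5 held 1.04, 2.31, 0.890, 1.46 and 4.05 CPM (3, 7, 2, 6 and 10 counts). AAV-GFP libraries ranged from 0.653 to 11.3 CPM with a median of 4.44, and AAV-miR-34b/c libraries from 3.11 to 20.9 CPM with a median of 8.57. Of the AAV-miR-34b/c libraries, 4 of 7 were above all vehicle libraries and the other 3 overlapped with vehicle library 5. *Ighg2b* was higher in AAV-miR-34b/c than in vehicle livers by 2.25 on the log2 scale (SE 0.55, 4.75-fold, edgeR adjusted p = 0.00971). The gene reached the minimum count through AAV-miR-34b/c libraries 1, 5, 6 and 7 (25, 36, 103 and 32 counts) and vehicle library 5 (10 counts). Without any 1 of those 4 AAV-miR-34b/c libraries it was not tested. In the 8 other fits with 1 library left out, the edgeR adjusted p was 0.00406 to 0.0328. With no filter on low counts, so that its entry did not rest on those libraries, the log2 fold change was 2.26 (edgeR adjusted p = 0.00466). In the same unfiltered fit, chosen after seeing the data, without library 1, 5, 6 or 7 in turn it was 1.85 to 2.28 (edgeR adjusted p = 0.00232 to 0.0149), lowest without library 6. With close pairs summed, the log2 fold change was 2.41 and the edgeR adjusted p 0.0548, within a range of 0.00109 to 0.0548 over the other processing choices. In AAV-GFP against vehicle livers the log2 fold change was 1.45 (SE 0.57, edgeR adjusted p = 0.0978). It passed without AAV-GFP library 6 (edgeR adjusted p = 0.0284). That was the lowest of the 8 fits with 1 library left out in which it was tested, and the highest edgeR adjusted p was 0.206. In this comparison too the minimum count was reached mainly through the high group, in AAV-GFP libraries 1, 3, 4 and 7 (16, 28, 39 and 14 counts). With no filter on low counts the log2 fold change was 1.45 and not called (edgeR adjusted p = 0.0853). Between the vectors the log2 fold change of the main fit was 0.80 (SE 0.51, edgeR adjusted p = 0.501). The exact permutation test gave p = 0.0114 for AAV-miR-34b/c against vehicle (adjusted p = 0.145).

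The other IgG genes varied widely within groups. *Ighg1* had 19 and 26 counts in vehicle libraries 1 and 4, a close pair, and 0 in the other 3 vehicle libraries. It had 0 to 23 counts in AAV-GFP libraries, and in AAV-miR-34b/c libraries 231 counts in library 6 against 0 to 9 in the other 6. *Ighg3* had 8 and 13 counts in vehicle libraries 3 and 5, another close pair, 0, 0 and 1 in the other vehicle libraries, and 0 to 2 counts in all 14 libraries of TAA mice. The exact permutation p of *Ighg3* against vehicle was 0.172 for AAV-GFP and 0.134 for AAV-miR-34b/c. *Ighg2c*, the IgG2 subclass gene that this strain has in place of *Ighg2a*, ranged from 1 to 11 counts in vehicle, 0 to 49 in AAV-GFP and 2 to 74 in AAV-miR-34b/c libraries. The 3 genes did not pass any test of single genes (exact permutation p from 0.134 to 0.853). *Ighe*, the IgE gene, had a single count, in vehicle library 3.

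*Jchain* did not reach the minimum count for the edgeR fit in any comparison. Vehicle libraries 1 to 5 held 4, 4, 11, 9 and 13 counts (1.39, 1.32, 4.89, 2.19 and 5.27 CPM). AAV-GFP libraries held 3 to 17 counts with a median of 6, and AAV-miR-34b/c libraries 1 to 12 counts with a median of 4. The groups overlapped, and the exact permutation p of log2 CPM was 0.634, 0.375 and 0.259 for AAV-GFP over vehicle, AAV-miR-34b/c over AAV-GFP and AAV-miR-34b/c over vehicle. Relative to *Igkc*, the mean log2 ratio of *Jchain* was -3.41 ± 0.47 (SD, n = 5) in vehicle, -3.75 ± 0.749 (SD, n = 7) in AAV-GFP and -4.71 ± 1.10 (SD, n = 7) in AAV-miR-34b/c livers. In AAV-miR-34b/c livers 5 of 7 ratios were below all vehicle ratios (difference -1.30, exact permutation p = 0.0354, adjusted p = 0.148 over the 21 ratio tests), which did not pass. With close pairs summed the difference was -1.38 (exact permutation test, adjusted p = 0.38).

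**Figure D2:**
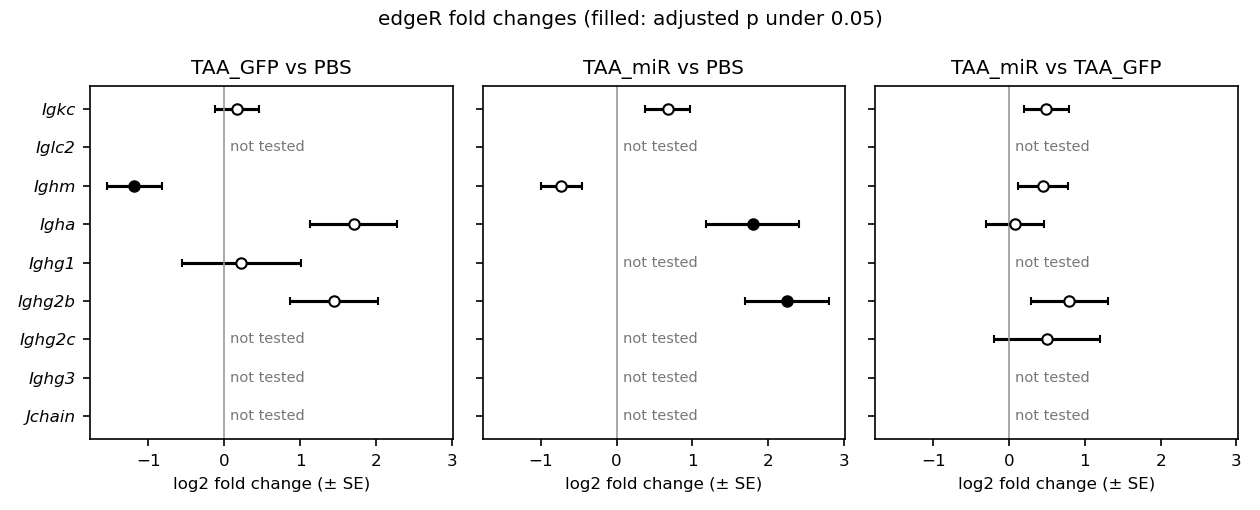
Log2 fold changes with their standard errors from edgeR for the 9 genes (rows) in the 3 comparisons (panels), with filled points for an adjusted p under 0.05. *Ighm* (-1.19) in AAV-GFP and *Igha* (1.80) and *Ighg2b* (2.25) in AAV-miR-34b/c livers are the filled points, all against vehicle, and genes under the minimum count are marked as not tested.

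Between the vector groups, both of which had TAA, none of the 5 members tested was called by edgeR, nor had any an unadjusted p under 0.05. Over all 9 members, whether or not they reached the minimum count, the difference in mean log2 CPM was above 0 for 5 and below 0 for 4, with a median of 0.038. Over all genes, 3.36% were called in this comparison, 1.95% higher and 1.42% lower. DESeq2 and limma-voom also called no member. Against vehicle, the difference in mean log2 CPM was above 0 for 6 of the 9 members in AAV-GFP livers (median 0.12) and for 5 of 9 in AAV-miR-34b/c livers (median 0.61). The median edgeR log2 fold change over all genes tested was -0.01, -0.01 and 0.02 between the vectors and for AAV-GFP and AAV-miR-34b/c against vehicle.

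Within each library the classes can be set against each other without any scaling between libraries. Counts were not divided by transcript length, so a share compares a class between libraries and is not its share of antibody mRNA. *Ighm* took 40.4% to 63.6% of the counts of the 6 heavy chain genes in vehicle libraries (median 61.5%), and it was the most counted class in 5 of 5. In AAV-GFP libraries its share ran from 5.13% to 68.6% (median 16.7%) and in AAV-miR-34b/c libraries from 8.70% to 48.4% (median 22.7%). It was the most counted class in 2 of 7 libraries of each TAA group, AAV-GFP 6 and 7 and AAV-miR-34b/c 3 and 4. *Igha* led in 3 AAV-GFP and 2 AAV-miR-34b/c libraries, *Ighg2b* in 1 and 2, *Ighg2c* in 1 AAV-GFP library and *Ighg1* in AAV-miR-34b/c library 6.

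The share of *Igha* was 0% to 27.7% in vehicle (median 7.69%), 17.2% to 39.2% in AAV-GFP (median 22.9%) and 12.5% to 37.8% in AAV-miR-34b/c libraries (median 15.4%). The 4 IgG genes together took 26.1% to 44.2% in vehicle (median 31.9%), 8.57% to 65.5% in AAV-GFP (median 45.1%) and 28.9% to 77.1% in AAV-miR-34b/c libraries (median 41.7%). With 35 to 529 heavy chain counts behind them, shares of single libraries were imprecise. The Wilson 95% interval of the *Ighm* share was 45.9% to 75.1% in vehicle library 2 (24 of 39 counts) and 2.01% to 12.5% in AAV-GFP library 1 (4 of 78 counts). In AAV-miR-34b/c library 6, *Ighg1* took 43.7% (interval 39.5% to 47.9%, 231 of 529 counts).

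**Figure D3:**
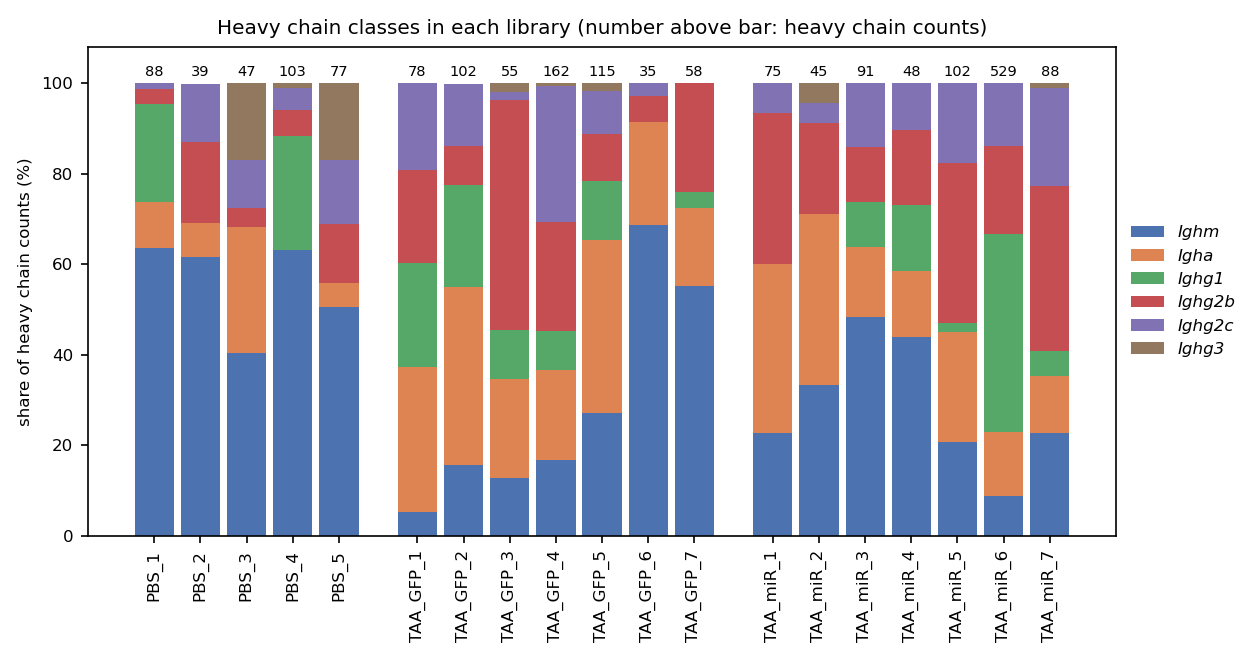
Share of each of the 6 heavy chain genes in their summed counts (vertical axis, %) in each library, with the number of heavy chain counts above each bar. *Ighm* is the largest part of all 5 PBS bars and of 2 of the 7 bars in each TAA group.

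The ratio of *Igha* to *Ighm* was higher in TAA than in vehicle livers, without passing the adjusted test. In vehicle libraries 1 to 5 the log2 ratio was -2.57, -2.81, -0.53, -7.03 and -3.13, where the lowest comes from 0 *Igha* counts in library 4 and rests on the 0.5 counts added to each gene. AAV-GFP libraries ranged from -1.63 to 2.5 with a median of 0.50, and AAV-miR-34b/c libraries from -1.62 to 0.70 with a median of 0.18. *Igha* outnumbered *Ighm* in 5 of 7 AAV-GFP, 4 of 7 AAV-miR-34b/c and 0 of 5 vehicle libraries. The mean log2 ratio was higher than in vehicle by 3.52 in AAV-GFP livers (11.5-fold, two-sided exact permutation p = 0.00758, adjusted p = 0.0619) and by 2.91 in AAV-miR-34b/c livers (7.51-fold, exact permutation p = 0.00884, adjusted p = 0.0619). Neither passed the threshold after adjustment over the 21 ratio tests. The smallest p these group sizes allow is 0.00126. Without vehicle library 4, the differences were 2.56 and 1.95 (exact permutation test, both adjusted p = 0.17). Without vehicle library 3 they were 4.19 and 3.58 and passed (exact permutation test, both adjusted p = 0.0318). Without AAV-GFP library 6 the AAV-GFP difference passed too (exact permutation test, adjusted p = 0.0455). With close pairs summed they were 2.74 and 2.59 (exact permutation test, both adjusted p = 0.38). With 3 vehicle samples against 6 and 4, the smallest p before adjustment is 0.0119 and 0.0286, so that the tests with close pairs summed, of this and the other ratios, could hardly pass and say nothing on stability.

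The ratio of *Ighg2b* to *Ighm* had the same direction, but it shares *Ighm* with the ratio above, so these ratios are not independent. Vehicle libraries 1 to 5 were at -4.01, -1.71, -2.96, -3.33 and -1.91 on the log2 scale, AAV-GFP libraries between -3.29 and 1.93 (median -0.80) and AAV-miR-34b/c libraries between -1.95 and 1.15 (median 0.54). In each TAA group, 6 of 7 libraries were above all vehicle libraries. The difference from vehicle was 2.46 in AAV-GFP (5.51-fold, exact permutation p = 0.024, adjusted p = 0.126) and 2.66 in AAV-miR-34b/c livers (6.33-fold, exact permutation p = 0.00631, adjusted p = 0.0619). With close pairs summed the differences were 2.03 and 2.59 (exact permutation test, adjusted p = 0.45 and 0.38). For *Ighg2c* to *Ighm* in AAV-miR-34b/c livers it was 1.83 (3.55-fold, exact permutation p = 0.0442, adjusted p = 0.155), and 1.88 with close pairs summed (exact permutation test, adjusted p = 0.45). Between the vectors, adjusted p-values of the 7 ratios were 0.222 to 0.885 (exact permutation test).

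**Figure D4:**
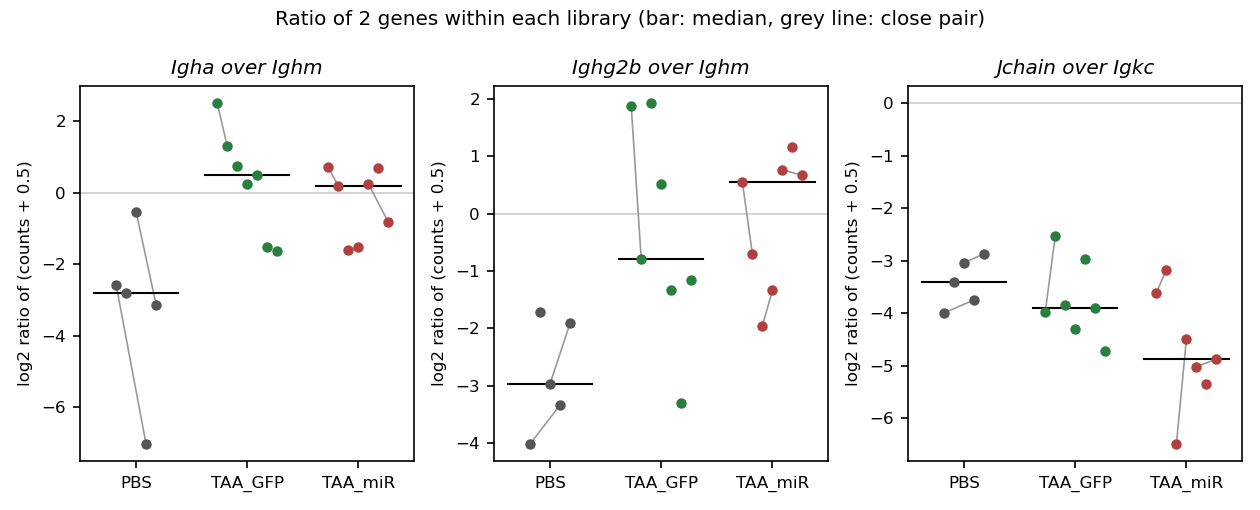
Log2 ratio of 2 genes within each library (vertical axes, counts plus 0.5) for *Igha* over *Ighm*, *Ighg2b* over *Ighm* and *Jchain* over *Igkc*, with a bar at the group median and grey lines joining close pairs. The *Igha* over *Ighm* median is -2.81 in PBS, 0.50 in TAA_GFP and 0.18 in TAA_miR libraries, and the PBS point at -7.03 is the library with 0 *Igha* counts.

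Close pairs shared more than their overall profile. Measured as the sum of absolute differences in class shares divided by 2, libraries of a close pair lay 9.27 to 22.6 percentage points apart (median 13.8, 6 pairs), and other pairs of the same group 14.6 to 63.4 points (median 38.9, 46 pairs). For 9 of the 12 libraries in close pairs, the library of the group nearest in class shares was the other of the pair. These distances are a description, since libraries enter several pairs, and what makes the pairs alike was not tested.

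Genes of the lineage, of antibody handling and of other cells are given next, and most of their calls were lost with close pairs summed. Of the list genes called, 3 of 13 for AAV-GFP over vehicle (*Timd4*, *Cela1* and *Pdia4*), 1 of 19 for AAV-miR-34b/c over vehicle (*Cela1*) and 1 of 4 between the vectors (*Fgb*) were then still called by edgeR. The direction was the same in all 36 cases, and the log2 fold changes were 0.812 to 1.13 times those of the separate libraries (median 0.988). For the others, the edgeR adjusted p under that treatment was 0.05003 to 0.168.

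Transcripts that mark the antibody-making lineage itself were near the limit of detection. Of 14 plasma cell genes listed, which include *Jchain*, 5 were tested in each comparison and the sum of the list was 218 to 289 CPM in vehicle, 235 to 407 CPM in AAV-GFP and 276 to 481 CPM in AAV-miR-34b/c libraries. Most of that sum came from *Sdc1*, a surface proteoglycan, and *Xbp1*, a transcription factor of secretory cells, both of which hepatocytes also express. *Mzb1*, a chaperone of antibody assembly, had 0 to 10 counts per library, *Prdm1*, which drives plasma cell fate, 0 to 7, *Pou2af1*, a B cell coactivator, 0 to 4, and *Irf4*, another factor of plasma cells, 0 to 3. *Derl3*, of the endoplasmic reticulum, had 0 to 21 counts. *Tnfrsf17*, the receptor BCMA of plasma cells, had 0 counts in all 19 libraries.

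Of these genes, *Fkbp11*, a folding enzyme of secretory cells, was lower than in vehicle in both TAA groups, with a log2 fold change of -1.12 (SE 0.25, edgeR adjusted p = 0.00834) in AAV-GFP and of -1.06 (SE 0.23, edgeR adjusted p = 0.00455) in AAV-miR-34b/c livers. *Sdc1* was higher in AAV-miR-34b/c than in vehicle livers (log2 fold change 0.88, SE 0.24, edgeR adjusted p = 0.0173). *Xbp1* had log2 fold changes of 0.17, 0.27 and 0.46 for AAV-GFP over vehicle, AAV-miR-34b/c over AAV-GFP and AAV-miR-34b/c over vehicle and was not called (edgeR adjusted p = 0.103 to 0.593). The plasma cell list thus had 0 genes higher and 1 lower of 5 tested in AAV-GFP, and 1 higher and 1 lower of 5 in AAV-miR-34b/c against vehicle. Over all genes tested, 7.54% were higher and 5.19% lower in the former and 12.2% and 9.75% in the latter comparison. The median log2 fold change of the list was 0.50 and 0.46, against -0.01 and 0.02 over all genes. Between the vectors none of 5 was called by edgeR (median 0.27). The median for AAV-GFP over vehicle was the value of *Derl3* (SE 0.58, edgeR adjusted p = 0.593). *Jchain*, *Mzb1*, *Prdm1*, *Pou2af1*, *Irf4* and *Tnfrsf17* were not tested in that comparison.

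Of 15 B cell genes, the sum was 5.20 to 12.0 CPM in vehicle, 8.57 to 17.0 CPM in AAV-GFP and 4.39 to 11.2 CPM in AAV-miR-34b/c libraries. *Cd79a*, a chain of the B cell receptor complex, had a single count, in AAV-GFP library 7, and its partner *Cd79b* had 0 to 7 per library. *Ms4a1*, which encodes CD20, had 0 to 9. The 1 gene of the list that was tested in any comparison, *Bank1*, had a log2 fold change of 0.30 for AAV-GFP over vehicle (SE 0.35, edgeR adjusted p = 0.599). No other gene of the list reached the minimum count, and the sum of the list was not tested. The part of these cells in the results was not tested.

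**Figure D5:**
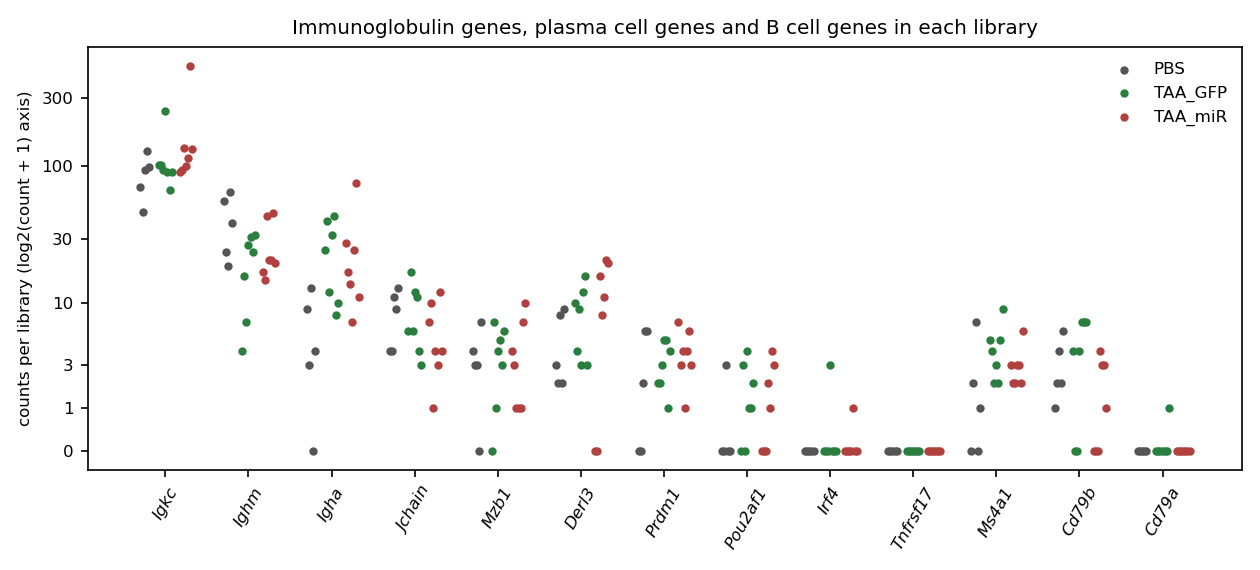
Counts per library (vertical axis on a log2(count + 1) scale) of immunoglobulin genes, plasma cell genes and B cell genes, with points coloured by group. *Igkc* stands at 47 to 505 counts in all libraries, while *Tnfrsf17* is at 0 in all and *Cd79a* at 0 in all but 1 library.

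Most genes that act on class and location of B cells were as sparse. Of 8 genes of class switching and germinal centres, 3 were tested. *S1pr2*, a receptor of germinal centre B cells that other cells also use, was lower in AAV-GFP than in vehicle livers (log2 fold change -1.0, SE 0.29, edgeR adjusted p = 0.0275). *Ung*, a DNA repair glycosylase that acts in class switching but also in other dividing cells, was higher in AAV-miR-34b/c livers than in AAV-GFP (1.02, SE 0.22, edgeR adjusted p = 0.0122) and in vehicle livers (0.86, SE 0.28, edgeR adjusted p = 0.0363). *Cxcl13*, the chemokine that attracts B cells, had 7 to 23 counts in vehicle, 0 to 5 in AAV-GFP and 0 to 10 in AAV-miR-34b/c libraries (5.02 ± 1.31, 0.774 ± 0.678 and 1.16 ± 1.11 CPM, SD, n = 5, 7 and 7). In CPM, the vehicle libraries did not overlap with those of either TAA group, but the gene was under the minimum count and not tested. *Cxcr4*, the receptor of *Cxcl12*, stood the other way at counts as low, with 0 to 4 in vehicle, 8 to 17 in AAV-GFP and 1 to 8 in AAV-miR-34b/c libraries. Its AAV-GFP libraries did not overlap with vehicle in CPM, those of AAV-miR-34b/c did, and it was not tested either. *Tnfsf13b*, the survival factor BAFF, had 0 to 7 counts. Of 15 genes for survival and attraction of the lineage, only *Cxcl12*, a chemokine that holds plasma cells in bone marrow, was tested, with log2 fold changes of -0.29, 0.09 and -0.18 in the 3 comparisons (edgeR adjusted p = 0.225 to 0.842).

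The liver's own handling of antibodies was well measured. *Pigr*, the receptor that carries polymeric IgA and IgM across epithelium, had 936 to 3627 counts per library. Its mean level was 412.5 ± 44.9 CPM in vehicle (SD, n = 5), 502 ± 103 CPM in AAV-GFP (SD, n = 7) and 601 ± 125 CPM in livers given AAV-miR-34b/c (SD, n = 7). It was higher in AAV-miR-34b/c than in vehicle livers by 0.55 on the log2 scale (SE 0.16, edgeR adjusted p = 0.0252). In AAV-GFP over vehicle the log2 fold change was 0.29 (SE 0.17, edgeR adjusted p = 0.282), and between the vectors 0.25 (SE 0.17, edgeR adjusted p = 0.542). *Fcgrt*, the receptor that rescues IgG from breakdown, was at 85.5 ± 21.7 CPM (SD, n = 5), 114 ± 18.5 CPM (SD, n = 7) and 105 ± 20.01 CPM (SD, n = 7) and was not called (edgeR adjusted p = 0.123 to 0.768).

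Of the receptors that bind IgG on macrophages and other cells, 2 were lower in AAV-GFP than in vehicle livers, where *Fcgr3* had a log2 fold change of -1.09 (SE 0.24, edgeR adjusted p = 0.00638) and *Fcgr4* of -1.05 (SE 0.24, edgeR adjusted p = 0.00921). The activating receptor *Fcgr1*, the inhibitory receptor *Fcgr2b* and the shared signalling chain *Fcer1g* had log2 fold changes of 0.25, -0.02 and -0.20 in that comparison and were not called (edgeR adjusted p = 0.764, 0.960 and 0.534). In AAV-miR-34b/c against vehicle livers the log2 fold changes of *Fcgr3* and *Fcgr4* were -0.75 and -0.47 (edgeR adjusted p = 0.0507 and 0.128), and between the vectors 0.33 and 0.57 (edgeR adjusted p = 0.653 and 0.220). Of the 7 genes of antibody transport and Fc receptors tested, the edgeR calls against vehicle were 0 higher and 2 lower in AAV-GFP and 1 higher and 0 lower in AAV-miR-34b/c. None was called between the vectors. Over all genes tested, 7.54% were higher and 5.19% lower in AAV-GFP and 12.2% higher and 9.75% lower in AAV-miR-34b/c against vehicle. Macrophage genes moved beside the Fc receptors. Of 8 macrophage genes, 5 were lower in AAV-GFP and 2 in AAV-miR-34b/c than in vehicle livers, with 1 higher of 7 tested between the vectors. Over all genes, 5.19% and 9.75% were lower against vehicle and 1.95% higher between the vectors. The smallest p-values for AAV-GFP over vehicle were those of *Timd4* (-2.13, SE 0.34), *Vsig4* (-0.79, SE 0.19) and *Clec4f* (-0.93, SE 0.23), all markers of liver-resident macrophages (edgeR adjusted p = 0.000569, 0.0106 and 0.0133). *Timd4* reached the minimum count mainly through the vehicle libraries, where it was high (18 to 44 counts, against 3 to 19 in AAV-GFP libraries). In AAV-miR-34b/c against vehicle livers the genes called lower were *Adgre1* (-1.22, SE 0.25) and *Timd4* (-1.69, SE 0.48, edgeR adjusted p = 0.0039 and 0.0196). Between the vectors *Cd5l* was higher (0.86, SE 0.17, edgeR adjusted p = 0.00553). The macrophage list summed to 323 to 591 CPM in vehicle, 228 to 397 CPM in AAV-GFP and 369 to 538 CPM in AAV-miR-34b/c libraries. Its part in the Fc receptor values was not tested.

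Of 12 folding genes that plasma cells need, and that hepatocytes use for their own secreted proteins, 6 were higher, 2 lower and 4 not called in AAV-miR-34b/c against vehicle livers, beside 12.2% higher and 9.75% lower over all genes. *Calr* (0.78, SE 0.15, edgeR adjusted p = 0.00195), *Hsp90b1* (0.74, SE 0.15, edgeR adjusted p = 0.00364) and *Pdia4* (0.83, SE 0.18, edgeR adjusted p = 0.00477) had the smallest p. *Pdia4* (0.90, SE 0.20, edgeR adjusted p = 0.00638) and *Manf* (0.90, SE 0.22, edgeR adjusted p = 0.0111) were the 2 of 12 higher in AAV-GFP livers, with 0 lower, beside 7.54% higher and 5.19% lower over all genes. Between the vectors none of 12 was called by edgeR. The median log2 fold changes of the list were 0.62, 0.42 and 0.14.

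Markers of other tissues and of blood were looked at beside the immunoglobulin genes. Lymphoid stroma genes were at or near 0, with *Ccl21a* and *Madcam1* at 0 in all libraries, *Ccl19* at 1 count, and *Cxcl13* as given above. T cell genes summed to 4.30 to 8.92 CPM in vehicle, 4.89 to 12.5 CPM in AAV-GFP and 3.43 to 9.32 CPM in AAV-miR-34b/c libraries. The 6 red blood cell genes summed to 109 to 376, 163 to 809 and 192 to 399 CPM, and *Alas2*, of haem synthesis, was higher than in vehicle in both TAA groups (0.69 and 0.63, edgeR adjusted p = 0.00638 and 0.0164). Of 6 genes of pancreas and gut, *Amy2a4* was at 0 in all libraries, while *Cela1*, an elastase, was lower than in vehicle in both TAA groups (-1.43 and -1.57, edgeR adjusted p = 0.00284 and 0.000909). *Fabp2*, a fatty acid carrier, was lower in AAV-miR-34b/c livers than in AAV-GFP (-1.34, edgeR adjusted p = 0.0165) and in vehicle livers (-0.91, edgeR adjusted p = 0.0261). Of 7 hepatocyte genes, *Fgb* was higher in AAV-miR-34b/c livers than in both other groups (1.35 and 1.07, edgeR adjusted p = 0.00114 and 0.0039) and *Cps1* lower than in vehicle livers (-0.90, edgeR adjusted p = 0.0051). The part of other cells in the immunoglobulin values was not tested.

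Over the 19 libraries, with each gene centred on its group mean, the profiles most like that of *Igkc* were those of *Gtpbp6* (Spearman rho 0.844), *Laptm5* (0.835), *Snrk* (0.821), *Arfgap1* (0.816) and *Rnf10* (0.809), the highest of 9922 genes. *Laptm5* encodes a lysosomal membrane protein of blood cells. Those most like *Jchain* were *Rab4b* (0.795), *Flot1* (0.782), *Ets2* (0.76), *Kctd10* (0.751) and *Noc3l* (0.744). These values are a description: the genes share their libraries and depth, and 12 of the libraries are in close pairs.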

How the data were processed

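Total liver RNA was sequenced from the 3′ end of mRNA on an Illumina NovaSeq instrument with single reads of 100 bases. Per the methods, the sequencing provider filtered, trimmed, aligned and counted the reads by gene, and the submitters' processing notes name mm10 and STAR. The aligner's version, the annotation, the strand setting and the use of molecular identifiers are not given in the sources used here. The values used are raw counts per gene, deposited by the authors in 1 table of 19 libraries without normalization. Overlapping or near-identical genes, such as those for the lambda chains, may share or lose reads. Symbols were matched by Ensembl identifier for 30934 of 31053 genes.

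Counts were compared with edgeR 4.0.16 in R 4.3.3 (TMM, filterByExpr at its minimums of 10 counts and 15 in total, quasi-likelihood test, only the 2 groups compared, no covariate). P-values were adjusted by Benjamini-Hochberg over all genes tested (threshold 0.05). Single members (log2 CPM, prior count 2) and ratios of 2 members (0.5 added) were compared by two-sided exact permutation tests, which enumerate 792 or 3432 splits, adjusted over 27 and 21 tests. The labels call the libraries biological replicates. The edgeR fit was tested on simulated data, and no result of that test is given here. The members and gene lists were chosen with earlier results of these data known. Named were all 9 members, up to 3 called genes with the smallest adjusted p per list and comparison, a set of genes of the B lineage and of antibody transport (some of them are not reported here), and the 5 genes most like *Igkc* and *Jchain*. *Derl3*, *Irf4*, *Bank1*, *Fcgr1*, *Fcgr2b*, *Fcer1g*, *Cxcl12*, *Cxcr4*, *Ighd*, *Ighe*, the other lambda genes and list genes at 0 were named after their values were seen. Alternatives were library size only or DESeq2's size factors as scaling, no filter, at least 10 counts in every library, DESeq2 1.42.0, limma-voom 3.58.1 with quality weights, all 3 groups in 1 fit, the replicate number as a block, close pairs (coefficient of variation under 0.2) summed, immunoglobulin genes left out of the library size, other pseudocounts, and each library left out.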

Additional observations from a re-analysis of the deposited data

Results flagged for a closer look

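A library far from the rest of its group, by Dixon's criterion on log2 CPM, was found in 2 of the 27 sets of member and group examined, where chance alone gives about 1 in 20 sets, here 1.35. Both were AAV-miR-34b/c library 6. *Igkc* was at a log2 CPM of 6.69 there, against 5.54 in the next library of the group (505 against 131 counts). *Ighg1* was at 5.57, against 1.78 in the next library (231 against 7 counts). The same library was the highest of its group in *Igha*, *Ighg2b* and *Ighg2c*, with 75, 103 and 74 counts, but had 0 counts of *Ighg3*. It also had the largest total, 5208405 counts, and the values here are scaled for that. What set this library apart was not tested.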

How the results depend on the processing

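Of the fitted values of single members under the alternatives, 256 kept their direction and their side of the threshold, 15 gained a call, 17 lost one and 10 turned in sign. No member was called between the vectors under any alternative. Close pairs were defined by a coefficient of variation under 0.2. Their summing or averaging for ratios, for the exact tests and for genes of the lists was chosen after seeing the data. The replicate numbers did not pair the samples (correlations of same-numbered deviations from -0.284 to 0.277). What makes the settings differ was not tested.

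For AAV-GFP over vehicle, 1 member was called higher with library size only, without a filter, with DESeq2 and with limma-voom, and 2 with the replicate block, against 0 in the main edgeR test. The members called lower fell from 1 to 0 with at least 10 counts in every library, where *Ighm* was not tested, and with close pairs summed. Over all genes, 2687 were called with limma-voom, 3136 with the replicate block and 227 with close pairs summed, against 1212. With each library left out in turn, 689 to 1859 genes, 0 to 2 members higher and 0 to 1 lower were called.

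For AAV-miR-34b/c over vehicle, the members called higher were 1 with library size only, 1 with the replicate block, 0 with close pairs summed and 0 with at least 10 counts in every library, against 2. With at least 10 counts in every library, *Igha* and *Ighg2b* were not tested. With the replicate block it was the call of *Igha* that was lost (edgeR adjusted p = 0.0782). With library size only and with limma-voom, 1 member, *Ighm*, was called lower, against 0. Over all genes, 3839 were called with limma-voom, 945 with the replicate block and 331 with close pairs summed, against 2037. With each library left out, 1267 to 2695 genes, 0 to 2 members higher and 0 to 1 lower were called.

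Between the vectors, 624 genes were called with library size only, 574 with DESeq2, 813 with limma-voom, 142 with the replicate block and 87 with close pairs summed, against 311. *Igha* turned from 0.08 to -0.13 with library size only and -0.47 with limma-voom, and in the exact test to -0.15 with library size only. *Ighg1* turned to 0.50 in the exact test with close pairs averaged.

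Small differences changed sign as single libraries were left out. The log2 differences for AAV-GFP over vehicle ran from -0.12 to 0.31 for *Igkc* (below 0 without AAV-GFP library 4) and from -0.082 to 0.91 for *Ighg1*. Between the vectors they ran from -0.24 to 0.22 for *Igha* and from -0.091 to 1.38 for *Ighg2c*. Log2 ratios for AAV-GFP over vehicle ran from -0.84 to 0.57 for *Ighg3* to *Ighm* and from -0.40 to 0.68 for *Iglc2* to *Igkc*. Between the vectors they ran from -0.30 to 0.57 for *Ighg2b* to *Ighm* and from -0.19 to 1.11 for *Ighg2c* to *Ighm*. With a pseudocount of 2, *Ighg3* to *Ighm* turned to 0.19 and *Iglc2* to *Igkc* to -0.16 for AAV-GFP over vehicle, and the latter to -0.44 with close pairs summed. *Ighg2c* turned to -0.048 in that comparison with a prior count of 0.5.

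The ratio of *Igha* to *Ighm* kept its direction, at 2.56 to 4.19 for AAV-GFP and 1.95 to 3.58 for AAV-miR-34b/c over vehicle. It passed the exact permutation test without vehicle library 3 in both and without AAV-GFP library 6 in the former. *Ighg2b* to *Ighm*, at 2.09 to 2.96 for AAV-GFP over vehicle, passed without AAV-GFP library 6 (exact permutation test, adjusted p = 0.0455). Low counts were one limit. With 35 to 529 heavy chain counts per library, 4 of 9 members for AAV-GFP over vehicle, 5 for AAV-miR-34b/c over vehicle and 4 between the vectors were too low to be tested with edgeR.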
